A study of Homo sapiens with 3 samples.

Results

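The cells described here are day 21 (D21) cells of human chambered cardiac organoids (CCOs) that carried RNA of WT1 or TBX18, a pair of transcription factor genes used as epicardial markers. A cell was taken when it held at least 1 unique molecular identifier (UMI, a tag that counts 1 captured mRNA molecule) of WT1 or TBX18. It also had to hold under 1% of its UMIs in TNNT2, MYH6, MYL7 and TTN (cardiomyocyte genes), under 1% in AFP, APOA1 and APOA2 (hepatic genes), fewer than 3 KDR UMIs and no CDH5 UMI (endothelial genes), and fewer than 8 UMIs per 10000 in 6 cell division genes. The cells were thus chosen by measured UMIs. This gave 190 of the 1946 D21 cells that passed the filters, or 9.76% (exact 95% interval 8.48 to 11.2), and of 8188 cells over all days. They were set beside 534 D21 cells with at least 0.2% of UMIs in COL1A1, COL1A2 and COL3A1, no WT1 or TBX18 UMI and the same limits on other cell types, called comparison cells here. WT1, TBX18 and the genes of the limits were therefore not tested between the groups. Because the pair of markers chose the cells, the levels of both genes in them are a description only.

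The CCOs were made from H7, an established human embryonic stem cell line, by Wnt pathway modulation, aggregation in Matrigel and growth in a cardiosphere medium with thrombin, cardiotrophin-1, EGF, FGF-2, Wnt-3A and EDN1. They were sampled on day 8, day 14 and day 21, and on day 14 the organoids moved to a spinner flask with RPMI/B27 medium, so the D21 cells had a week's culture that the others lacked. Each day is 1 Chromium 3' library of dissociated organoids. Age, medium, culture vessel and library therefore cannot be told apart between days, there is no replicate error, and no test between groups of cells was made. Intervals in the text cover counting error only. Cells with detected genes above 2000 and below 7500, and with mitochondrial UMIs under 10%, were kept: 2657 cells at D8, 3585 at D14 and 1946 of 9149 barcodes at D21. The kept cells of D21 had a median of 14105.5 UMIs. Of the 111 D21 barcodes that also occurred in another library, 19 were kept cells, and 1 WT1/TBX18+ cell shared its barcode with a kept D8 cell.

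As background, the epicardium is the mesothelial sheet that covers the heart. It spreads from the proepicardium, next to the septum transversum and the liver, and some of its cells lose their epithelial form and enter the heart wall, where they give rise to fibroblasts and mural cells. WT1 is active in this sheet, in other mesothelia and in kidney and gonad, and TBX18 in the epicardium, in mural cells and in the sinus venosus. Neither gene on its own identifies an epicardial cell, so the label was checked against genes that the rule did not use.

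Several listed epicardial and mesothelial genes did not bear out the epicardial name for most of these cells. They were at or near 0: UPK3B, a uroplakin of mesothelium, had 1.10 UMIs in each 1000000 (counts per 1000000, CPM; 3 UMIs), BNC1 1.10 CPM, ITLN1 1.83 CPM and ALDH1A2, the retinoic acid synthesis enzyme of the epicardium, 1.46 CPM in the summed 190 cells. MSLN, PRG4, GPM6A, CLDN1 and LRP2 had no UMI, where 3 counts would be 1.10 CPM. A set of such genes, given below, was not particular to mesothelium in this library. Of the 26 listed epicardial and mesothelial genes, 16 were under 5 CPM. Others of the list were not low, with KRT18 at 577 CPM, KRT8 at 485 CPM, GATA4 at 114 CPM and TCF21 at 104 CPM. Of the 22 listed fibroblast genes, 3 (ELN, OGN and DPT) were under 5 CPM and 17 were compared at 20 CPM, among them LUM, a small proteoglycan of matrix, at 563 CPM, SPARC at 994 CPM and MGP at 1285 CPM. The cells are therefore called WT1/TBX18+ cells, after the rule.

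WT1 and TBX18 were also counted in the other cell classes of the same library, where free RNA can give UMIs. Free RNA itself was not measured. Of 276 hepatic cells, which were deeper at a median of 22328.5 UMIs, 0 held a WT1 or TBX18 UMI, which allows a share of up to 1.09% by 3 counts (exact upper limit 1.33%). Of 600 cardiomyocytes, with a median of 13316 UMIs, 18 (3.0%) held WT1 and 3 (0.5%) held TBX18. Among the 706 collagen-positive cells of D21 within the limits, at a median of 12773.5 UMIs, 129 (18.3%, 15.5 to 21.3) held WT1 and 54 (7.65%, 5.80 to 9.86) held TBX18. After each cell was thinned to 6000 UMIs, the shares with either gene were 11.2% in the collagen-positive cells, 0.852% in cardiomyocytes and 0 in the hepatic cells. The summed WT1 level was 18.7 CPM in the collagen-positive cells, 2.39 CPM in cardiomyocytes and 8.82 CPM (2.86 to 20.6) in 37 endothelial cells, an interval that overlapped that of the collagen-positive cells.

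**Figure D1:**
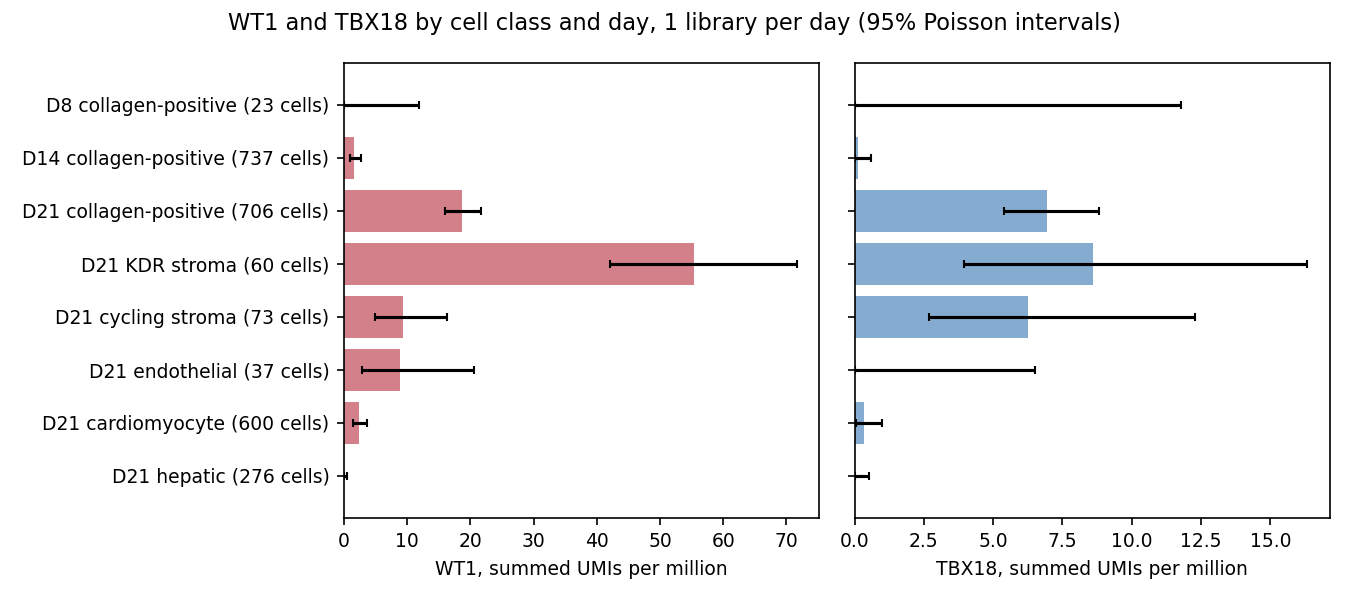
Summed WT1 (left) and TBX18 (right) CPM on linear axes, by cell class and day, each from 1 library, with exact 95% Poisson bars and the number of cells beside each class. WT1 was at 18.7 CPM in the collagen-positive D21 cells and 55.4 CPM in the KDR stroma, and both genes had no UMI in the hepatic cells.

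The limit on KDR removed cells that were rich in WT1. KDR encodes a VEGF receptor, and the 60 D21 cells with collagen and at least 3 KDR UMIs but no CDH5 held WT1 at 55.4 CPM (42.1 to 71.6), against 18.7 CPM (16.0 to 21.6) in the collagen-positive cells. In them 28 of 60 (46.7%) had a WT1 UMI, and after thinning 15 of 60 did, against 9.33% of the collagen-positive cells. TBX18 stood at 8.60 CPM (3.93 to 16.3) there and at 6.95 CPM (5.39 to 8.83) in the collagen-positive cells, so its intervals overlapped. Of the 277 D21 cells with WT1 or TBX18, 87 fell to a limit: 47 to that on KDR (34 of these to it alone), 29 to cell division genes, 25 to cardiomyocyte genes, 4 to hepatic genes and 4 to CDH5, with 21 past more than 1 limit. The highest share of cardiomyocyte genes in a WT1/TBX18+ cell was 0.841%, and the lowest in a cell left out by that limit alone was 1.12%. The highest share of hepatic genes was 0.990%, and no cell fell to that limit alone.

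Most of the cells rested on a single molecule. Of the 190 cells, 135 (71.1%) held 1 UMI of the pair, 39 held 2 and 16 held 3 or more, with a highest value of 8. WT1 alone was seen in 126 cells, TBX18 alone in 50 and both in 14, from 193 WT1 and 79 TBX18 UMIs. The share chosen moved with depth. The share of collagen-positive cells with either gene was 20.1% (14.5 to 26.7) in cells under 10000 UMIs, 23.7% from 10000 to 15000, 27.7% from 15000 to 20000 and 30.6% (20.2 to 42.5) at 20000 or more. The summed level of the pair did not follow that order, at 30.5, 27, 26.5 and 17.0 CPM. The WT1/TBX18+ cells had a median of 13410.5 UMIs, 3455 genes and 3.68% mitochondrial UMIs, and the comparison cells 12503 UMIs, 3284.5 genes and 3.78%. Of the WT1/TBX18+ cells, 172 had the collagen share asked of the comparison cells and 18 were below it.

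The share of cells with TBX18 had overlapping intervals in cells with and without WT1. In the collagen-positive cells, 11 of 129 cells with WT1 (8.53%, 4.33 to 14.7) and 43 of 577 cells without it (7.45%, 5.45 to 9.91) held TBX18. In the counts thinned to 6000 UMIs these shares were 6.15% (1.70 to 15.0, 4 of 65 cells) and 2.06% (1.10 to 3.49). Over 10 further draws of the thinning they ran from 1.49 to 8.70% and from 3.18 to 4.13%, so the thinned difference depended on the draw.

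TCF21, a transcription factor of epicardium and of the fibroblasts formed from it, was above 20 CPM in both groups. It stood at 104 CPM (92.7 to 117) in the WT1/TBX18+ cells, 73.0 CPM (66.9 to 79.5) in the comparison cells, 46.8 CPM in the KDR stroma, 7.17 CPM in cardiomyocytes and 1.16 CPM in hepatic cells. The log2 ratio between the first groups was 0.52 (0.30 to 0.73), short of a 1.5-fold change. A TCF21 UMI was seen in 91 of 190 and 188 of 534 cells (47.9 and 35.2%), and after thinning in 33.0% (26.3 to 40.3) and 22.8% (19.3 to 26.6). The level by UMIs of the pair was 81.6 CPM (69.3 to 95.5) with 1 UMI, 151 CPM (121 to 187) with 2 and 171 CPM (123 to 231) with 3 or more. It was higher in 16 of 17 alternative ways of choosing, scaling or thinning the cells, which share most cells. These 17 are not separate checks: they count the lowest and the highest of 10 further draws, and 2 scalings that moved all genes alike by little. The exception was the planned thinning that chose the cells anew, at -0.31, where 10 further draws gave 0.31 to 0.80.

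**Figure D2:**
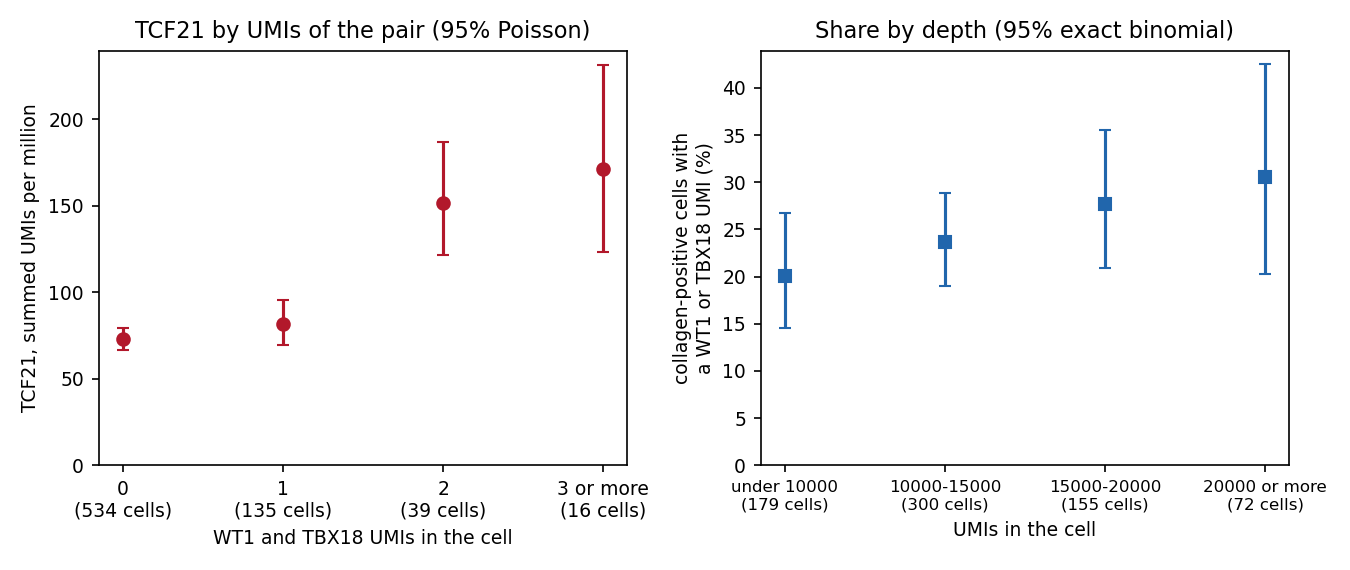
Left, summed TCF21 CPM in D21 cells with 0, 1, 2 and 3 or more UMIs of WT1 and TBX18, with exact 95% Poisson bars, from 73.0 to 171 CPM. Right, the percent of collagen-positive D21 cells with a WT1 or TBX18 UMI in 4 ranges of UMIs per cell, with exact binomial bars, from 20.1 to 30.6%.

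Genes that reached 20 CPM in either group numbered 5557. Of these, 63 were 1.5-fold or more higher in the WT1/TBX18+ cells (1.13% of the genes) and 57 were 1.5-fold or more lower (1.03%), so that 2.16% were past the fold in either direction. The median log2 ratio over these genes was 0.01. The lists of related genes mostly held none of them. At a share of 2.16% over all genes, few or none would be past the fold in lists this short. Of the epicardial list, 8 genes were at 20 CPM and 2 were past the fold, EZR and KRT19, both higher. KRT8 (485 and 412 CPM) and KRT18 (577 and 495 CPM), the simple-epithelium keratins, were within it, though both have many near-identical pseudogenes that could share reads. GATA4 stood at 114 and 113 CPM. SEMA3D, a guidance factor of proepicardial cells, was lower in value, at 14.2 and 20.9 CPM, with both groups near or under the 20 CPM limit. LRRN4, a mesothelial membrane protein gene, stood at 11.3 CPM (31 UMIs) and 4.74 CPM (34 UMIs), a log2 ratio of 1.25 (0.50 to 2.0), but at 25.8 CPM in the KDR stroma and 15.7 CPM in cardiomyocytes.

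**Figure D3:**
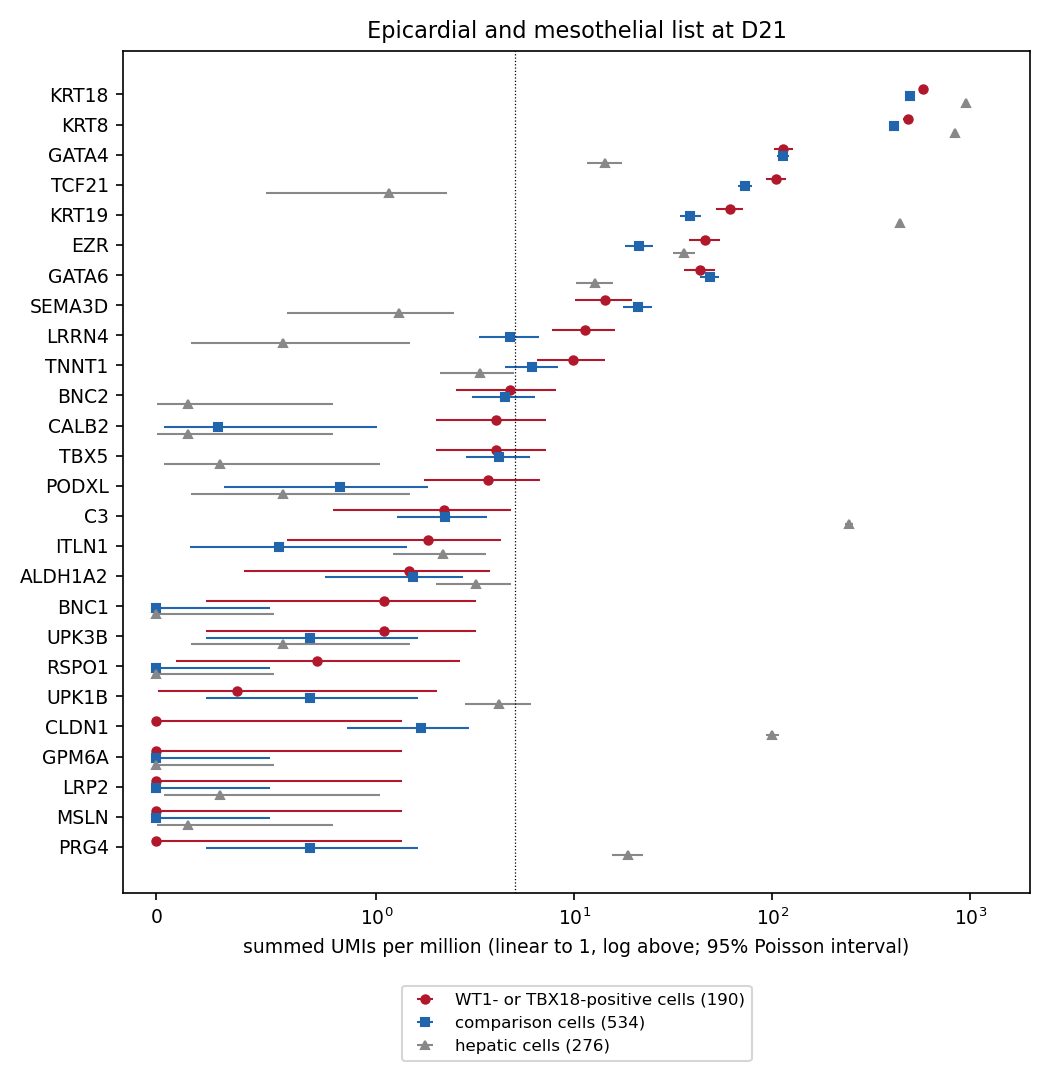
The 26 genes of the epicardial and mesothelial list, ordered by level in the WT1/TBX18+ cells, as summed CPM on an axis that is linear to 1 and log above, with exact 95% Poisson bars and a dotted line at 5 CPM. The WT1/TBX18+ and comparison cells lie close together for most genes, and 16 genes are under 5 CPM in the WT1/TBX18+ cells.

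Much of the EZR and KRT19 signal lay in a few cells with little collagen. One WT1/TBX18+ cell with 34230 UMIs held 2 UMIs each of UPK3B, BNC1 and ITLN1, 43 each of KRT19 and EZR, 6 of CDH3 and 81 of SST (somatostatin), with 1 UMI of WT1 and 1 of TBX18. A second, with 9771 UMIs, held 1 UMI each of BNC1, ITLN1 and WT1 and 9 of KRT19. These were 2 of the 18 cells below the collagen limit, and the only WT1/TBX18+ cells with at least 2 of 9 mesothelial genes, a set picked after the values were seen (UPK3B, UPK1B, MSLN, BNC1, ITLN1, CALB2, ALDH1A2, GPM6A and PRG4). At least 1 of the 9 was found in 15 of 190 WT1/TBX18+ cells (7.89%, 4.49 to 12.7), 30 of 534 comparison cells (5.62%, 3.82 to 7.92) and 49 of 600 cardiomyocytes (8.17%). The count in hepatic cells was 110 of 276 (39.9%), 19 of which held at least 2, so the set is not particular to mesothelium in this library. These shares were not thinned, and the hepatic cells were deeper, at a median of 22328.5 UMIs against 13410.5 in the WT1/TBX18+ cells. Within the WT1/TBX18+ cells at least 1 of the 9 was found in 5 of the 18 with little collagen and 10 of the 172 others. In the 172 cells KRT19 was at 29.5 CPM and EZR at 23.4 CPM, beside 38.7 and 21.2 CPM in the comparison cells, so that the log2 ratio of KRT19 turned to -0.39.

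The listed matrix and mesenchyme genes at 20 CPM were within the fold in the main comparison, as most genes were. Of 17 fibroblast genes at 20 CPM, 0 were past the fold in either direction, beside 2.16% of all 5557 genes. Their median log2 ratio was -0.06. ELN (elastin), below that level, had 6 UMIs (2.19 CPM) against 53 (7.40 CPM), a log2 ratio of -1.75 (-3.26 to -0.54). MGP, an inhibitor of calcification, was at 1285 and 1740 CPM and DCN, decorin, at 151 and 207 CPM. DCN was within the fold under 11 of 15 alternatives (down to -0.92) and MGP under 12 of 15 (down to -1.06). TNC was within the fold under 13 of 15, with values from -1.16 to 0.74. LUM was at 563 and 488 CPM and POSTN, periostin, at 303 and 311 CPM. Of 9 genes of epithelial-to-mesenchymal change, 0 were past it. SNAI2 (103 and 79.4 CPM), PDGFRB (186 and 147 CPM) and CDH2, N-cadherin (265 and 207 CPM), were higher in value and PDGFRA (48.2 and 62.4 CPM) lower. Of 9 smooth muscle and pericyte genes 1 was past it: DES, the muscle intermediate filament, at 47.5 CPM against 25.7 CPM, with a log2 ratio of 0.89 (0.55 to 1.22), a UMI in 46 and 74 cells, and 16.2 and 6.79% of cells after thinning. ACTA2 stood at 918 and 762 CPM and RGS5 at 566 and 508 CPM.

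Of 17 secreted factors at 20 CPM, FGF7 and SFRP5 were higher and BMP4 lower. FGF7, an epithelial growth factor, stood at 28.1 and 16.0 CPM, a log2 ratio of 0.81 (0.37 to 1.24), and at 63.1 CPM in the KDR stroma. BMP4 stood at 147 and 225 CPM, a log2 ratio of -0.61 (-0.77 to -0.45), with a UMI in 100 of 190 and 266 of 534 cells, so its share of cells was 52.6 and 49.8%. FGF7 was within the fold under 2 of 15 alternatives (down to 0.35), BMP4 under 5 of 15 (down to -0.34), and SFRP5 turned to -0.033 with the collagen limit asked of all cells and to -0.018 in cells of 10000 to 20000 UMIs. IGF2 (2159 and 2003 CPM) and CXCL12 (456 and 518 CPM) were within the fold. Of 3 retinoic acid genes at 20 CPM 0 were past it, with CRABP2 at 683 and 637 CPM, and ALDH1A2 had 4 UMIs in 3 cells.

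Of the 16 septum transversum and liver mesenchyme genes, 8 reached 20 CPM and 4 were under 5 CPM in the WT1/TBX18+ cells: LHX2, LRAT, PDPN and LHX9, the last without a UMI. The list summed to 1102 CPM in these cells, 1069 CPM in the comparison cells and 864 CPM in cardiomyocytes. HGF, the hepatocyte growth factor, was at 135 and 122 CPM, COLEC11, a collectin of stellate cells, at 343 and 316 CPM, NGFR at 19.0 and 15.8 CPM and NR2F2 at 82.2 and 68.9 CPM. Of the 8 listed genes at 20 CPM 1 was past the fold, ECM1, at 57.7 and 35.9 CPM (log2 0.69, and 0.13 with comparison collagen of 0.5%). LHX2 was at 4.02 and 1.40 CPM. The kidney and gonad list, for other tissues in which WT1 is active, had 0 of its 15 genes at 20 CPM and 9 without a UMI, among them PAX2, PAX8, SIX2 and NR5A1. Of the sinus venosus list, for another place where TBX18 is active, SHOX2 had no UMI, ISL1 had 30 and 124 UMIs, and BMP4 was the only gene of the 7 at 20 CPM.

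The summed levels of genes of the cell types that the limits kept out lay near each other in the groups. The 12 cardiomyocyte genes that the rule did not use summed to 2687 CPM in the WT1/TBX18+ cells and 2821 CPM in the comparison cells, beside 1909 CPM in hepatic cells and 50849 CPM in cardiomyocytes. The 12 hepatic genes summed to 988 and 1126 CPM, beside 1266 CPM in cardiomyocytes and 100755 CPM in hepatic cells. Of the 9 hepatic genes at 20 CPM 1 was past the fold, SERPINA1, lower at 191 against 299 CPM. However, 1 comparison cell held 532 SERPINA1 UMIs. Without the top cell of each group SERPINA1 stood at 185 and 226 CPM, a log2 ratio of -0.29, within the fold. It was past the fold under 8 of 14 alternatives. The 12 endothelial genes summed to 478 and 444 CPM, beside 3156 CPM in endothelial cells. Of the 8 division genes and the 11 immediate early genes at 20 CPM, 0 were past the fold, beside 2.16% of all genes. Of the 2 neural genes and the 1 epithelial junction gene 0 were.

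Of the 15 genes ranked highest, 7 were past the fold under each of the alternatives that gave a value: CD14, SYT4, S100A10, KCNK1, FBXO32, SLC7A2 and DES. CD14, S100A10 and SLC7A2 gave no value with the hepatic level subtracted, because hepatic cells held them at the level of the lower group or above. SYT4, a vesicle synaptotagmin, stood at 40.5 and 16.9 CPM, a log2 ratio of 1.26 (0.88 to 1.65), with a UMI in 14.6% (9.84 to 20.5) and 7.17% (5.12 to 9.71) of thinned cells. KCNK1, a potassium leak channel, stood at 21.9 and 8.79 CPM, a log2 ratio of 1.32 (0.78 to 1.85), with a UMI in 14.1% (9.39 to 19.9) and 4.72% (3.08 to 6.88) of thinned cells. Among thinned cardiomyocytes and hepatic cells the share with a UMI was 0.681 and 0.725% for SYT4 and 0.681 and 1.09% for KCNK1. SLC7A2, a cationic amino acid transporter, stood at 26.3 and 13.3 CPM, FBXO32, a ubiquitin ligase subunit of muscle, at 37.3 and 19.0 CPM, and S100A10, a partner of annexin A2, at 263 and 126 CPM. KCNK1, SLC7A2 and SYT4 were at 28.7, 59.2 and 56.4 CPM in the KDR stroma as well. Among the WT1/TBX18+ cells, SYT4 was at 48.6 CPM with WT1 alone and 17.6 CPM with TBX18 alone, and FBXO32 at 46.9 and 17.6 CPM. With TBX18 alone both genes thus lay near the level of the comparison cells. CD14 went the other way, at 11.4 CPM with WT1 alone and 58.2 CPM with TBX18 alone. However, 28 of its 43 UMIs in the TBX18-only cells were in 1 cell, and 8 of these 50 cells had any. Without the top cell of each group the log2 ratio, TBX18-only over WT1-only, moved from 2.35 to 1.85 (0.59 to 3.16).

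For other genes of the upper ranks the difference did not hold under every alternative or lay in few cells. SST led the ranking at 37.6 and 5.16 CPM, but was seen in only 6 WT1/TBX18+ cells. Of its 103 UMIs there, 81 were in the large cell named above. Without the cell with most UMIs in each group the log2 ratio fell from 2.87 to 1.22, on 22 UMIs in the WT1/TBX18+ cells. With the collagen limit asked of all cells it was 0.49, within the fold. CD14, the monocyte receptor that hepatic stellate and other mesenchymal cells can also carry, had 111 UMIs in 19 cells, 44 of them in 1 cell, and a log2 ratio of 2.21 (1.75 to 2.67), which was 2.25 without the top cell of each group. PTPRC, the general leukocyte marker, had no UMI in the WT1/TBX18+ cells. SFRP5, a Wnt antagonist, had 80 UMIs in 17 cells, 53 of them in 5 cells with little collagen. SPP1, AQP3, PAPPA, GATA3 and NTS were higher by log2 ratios of 0.87 to 1.20, but each was within the fold under at least 1 alternative: SPP1 at 0.06 with 2 or more UMIs of the pair, AQP3 at -0.098 with cells chosen after thinning, PAPPA at 0.31 with comparison collagen of 0.5%, GATA3 at 0.37 with a 5% mitochondrial limit and NTS at 0.11 in cells of 10000 to 20000 UMIs. The choice of cells after thinning was 1 draw, which was not repeated for AQP3. NTS, neurotensin, had 256 UMIs in 34 of 190 cells and 341 UMIs in 51 of 534.

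Of the 15 genes ranked lowest, 14 are reported, and 8 of these were past the fold under each alternative that gave a value: SLN, CRHBP, ASPN, AGT, ADAMTS9, SRPX, FMOD and TMEM178A. AGT gave no value with the hepatic level subtracted, because hepatic cells held it at the level of the lower group or above. ASPN (asporin) and FMOD (fibromodulin) are small proteoglycans of matrix. ASPN stood at 21.9 and 57.6 CPM, a log2 ratio of -1.40 (-1.81 to -1.0), with a UMI in 7.57% (4.20 to 12.4) and 16.0% (13.0 to 19.4) of thinned cells. ADAMTS9, a matrix protease, stood at 50.8 and 112 CPM, a log2 ratio of -1.14 (-1.41 to -0.88), with a UMI in 18.9% (13.5 to 25.3) and 38.1% (34.0 to 42.4) of thinned cells. SRPX stood at 182 and 367 CPM and FMOD at 19.0 and 42.0 CPM. SLN, sarcolipin, differed in UMIs but not in the share of cells: it stood at 29.6 and 99.9 CPM with a UMI in 6.49 and 7.17% of thinned cells, and its top comparison cell held 71 of 716 UMIs. ENTPD1, G0S2, PENK and CTGF were also lower, by log2 ratios of -0.95 to -1.13, on 17, 42, 11 and 41 WT1/TBX18+ cells with a UMI. Each was within the fold under at least 1 alternative: ENTPD1 at -0.39 with comparison collagen of 0.5%, CTGF at -0.57 in cells of 10000 to 20000 UMIs, and, with cells chosen after thinning, G0S2 at -0.36 and PENK at 0.28. That choice of cells was 1 draw, which was not repeated for G0S2 and PENK.

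For some genes of the low ranks, 1 comparison cell held most of the UMIs. For PRSS1, trypsinogen, 1 comparison cell held 377 of 457 UMIs, for SPINK1 124 of 191 and for CRHBP 169 of 284. Without the top cell of each group the log2 ratio of PRSS1 moved from -2.86 to -0.54 and that of SPINK1 from -1.60 to -0.22, both within the fold. That of CRHBP moved from -1.90 to -1.13, still past the fold, with a CRHBP UMI in only 10 of 190 and 26 of 534 cells. PRSS1 has near-identical copies, and it stood at 1459 CPM in hepatic cells. Over all genes, leaving out the top cell of each group in this way left 50 of the 63 higher and 53 of the 57 lower genes past the fold, with 82 lower genes in all.

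**Figure D4:**
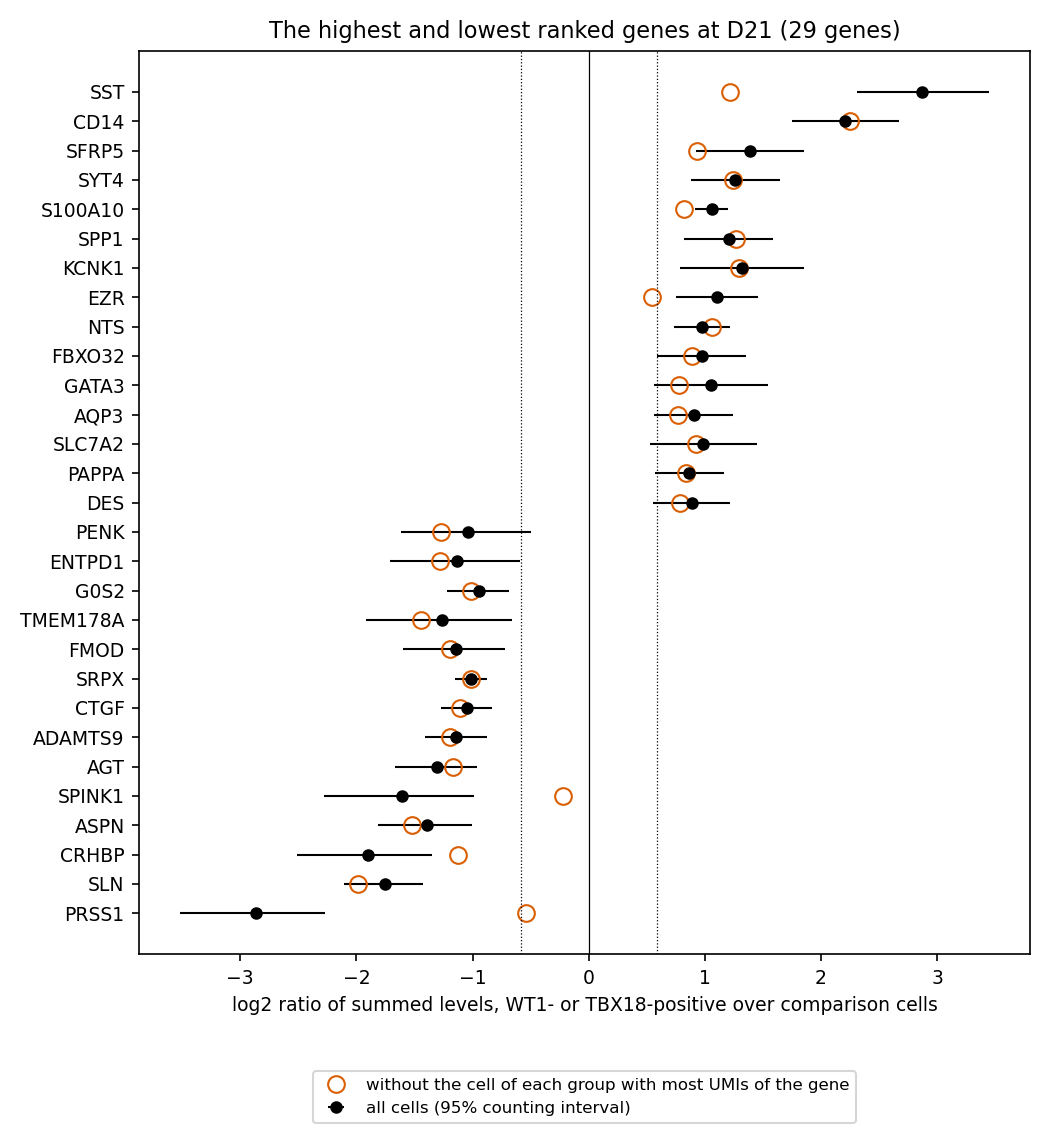
The log2 ratio of summed levels, WT1/TBX18+ over comparison cells, for the 15 genes ranked highest and 14 of the 15 ranked lowest, with 95% counting bars, and open circles for the ratio without the cell of each group that held most UMIs of the gene. Dotted lines mark 1.5-fold. The circles of SST, PRSS1, SPINK1, CRHBP and EZR lie far from the points.

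In the nearest-neighbour search, which left out the genes of the rule, WT1/TBX18+ cells had slightly more of their own kind around them. They made up 31.7% of the 20 nearest neighbours of a WT1/TBX18+ cell and 24.2% of those of a comparison cell, beside 25.9% of the 715 cells searched. Around WT1-only cells, 23.4% of neighbours were WT1-only, against 17.2% of the cells searched, and around TBX18-only cells 7.81% were TBX18-only, against 6.71%. Across the kinds, 19.2% of neighbours of TBX18-only cells were WT1-only, and 7.40% of neighbours of WT1-only cells were TBX18-only. The TBX18-only share was thus much the same around both kinds. With 10 or 50 neighbours, fewer variable genes, unthinned counts or the collagen limit asked of both groups, the share around WT1/TBX18+ cells was 29.7 to 31.6%.

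The cells with WT1 alone were also set beside those with TBX18 alone. These are small groups, and counts past a fold grow with counting noise. Of 5770 genes at 20 CPM or more in either, 387 (6.71%) were 1.5-fold or more higher in the 50 TBX18-only cells and 429 (7.44%) were 1.5-fold or more lower. Of the 139 named genes tested, 15 were higher and 22 lower. The genes given here were picked after their values were seen. Higher in TBX18-only cells were PRRX1, a mesenchymal transcription factor, at 77.1 and 28.0 CPM with a log2 ratio of 1.46 (0.88 to 2.04) and a UMI in 20 of 50 and 34 of 126 cells, and MGP, at 2106 and 1065 CPM with a UMI in 40 and 82 cells. DCN, at 207 and 130 CPM, fell within the fold without the top cell of each group.

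Higher in WT1-only cells were SNAI2, LUM, PDGFRB, HGF, COLEC11 and RGS5. SNAI2, a regulator of epithelial-to-mesenchymal change, stood at 129 CPM in WT1-only and 56.8 CPM in TBX18-only cells, a log2 ratio of -1.18 (-1.69 to -0.70), with a UMI in 86 of 126 and 23 of 50 cells. LUM stood at 661 and 318 CPM and PDGFRB, a receptor of mural and stellate cells, at 217 and 111 CPM. HGF stood at 153 and 79.8 CPM and COLEC11 at 410 and 227 CPM. RGS5, a pericyte gene, stood at 638 and 404 CPM. CNN1, of the same smooth muscle and pericyte list, went the other way, at 53.8 and 93.3 CPM. Its log2 ratio, TBX18-only over WT1-only, was 0.80 (0.33 to 1.26). Of the 9 genes of that list tested, 1 was higher and 1 lower in TBX18-only cells. TCF21 was at 105 CPM in WT1-only, 64.9 CPM in TBX18-only and 220 CPM (166 to 286) in the 14 cells with both. Of the 10 septum transversum and liver mesenchyme genes tested, 5 were lower in TBX18-only cells (NR2F1, HGF, ALCAM, COLEC11 and MEIS1) and 0 were higher. Over all 5770 genes, 7.44% were lower and 6.71% higher. The intervals of NR2F1 (-1.64 to 0.19) and ALCAM (-2.28 to 0.16) crossed 0, on 14 and 8 UMIs in the TBX18-only cells. POSTN, ACTA2 and COL6A1 also had intervals that crossed 0. JUN, an immediate early gene, was higher in TBX18-only cells at 216 and 92.7 CPM, and the part of cell handling in these differences was not tested.

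**Figure D5:**
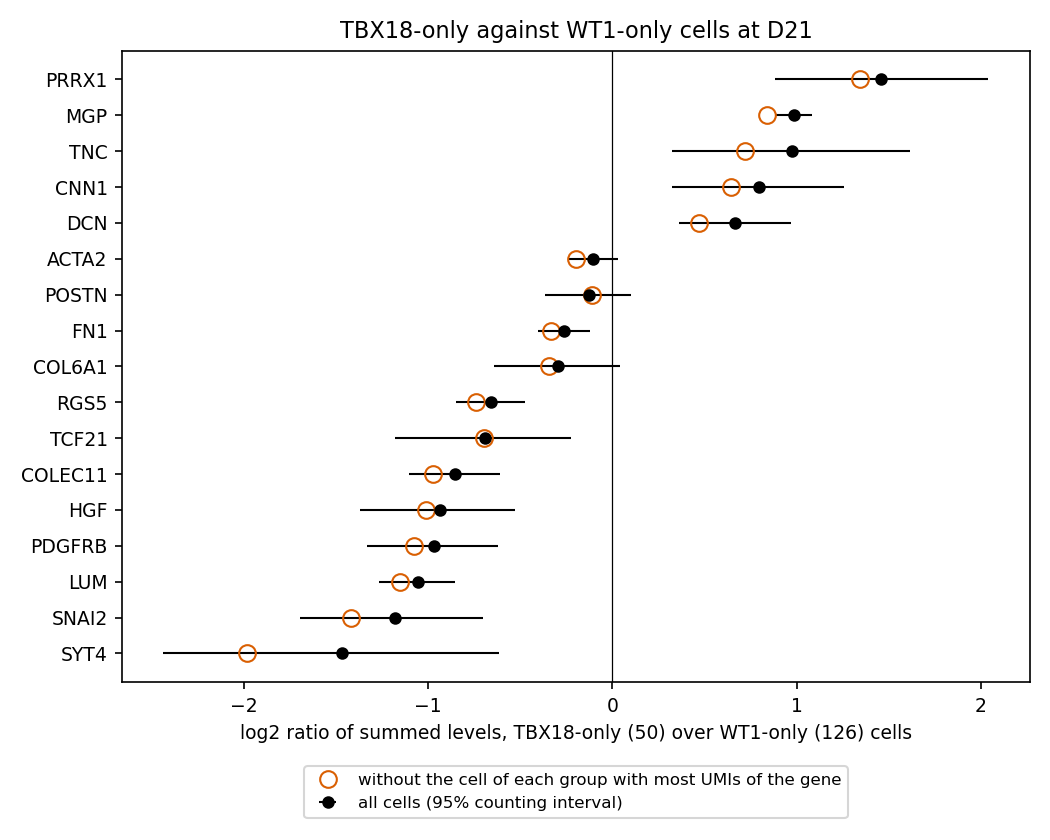
The log2 ratio of summed levels in the 50 TBX18-only over the 126 WT1-only cells for 17 genes picked after their values were seen, with 95% counting bars and open circles for the ratio without the cell of each group that held most UMIs of the gene. PRRX1 and MGP lie to the right, and SNAI2, LUM, PDGFRB, HGF and COLEC11 to the left.

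The same rule found few collagen-positive cells at earlier days. It took 36 of 2657 cells at D8 (0.951 to 1.87%) and 34 of 3585 at D14 (0.948%, 0.658 to 1.32), of which 0 at D8 and 15 at D14 had the collagen share asked of the comparison cells. Counted within the collagen-positive cells, WT1 or TBX18 was found in 0 of 23 at D8, 15 of 737 (2.04%, 1.14 to 3.33) at D14 and 172 of 706 (24.4%, 21.2 to 27.7) at D21. WT1 was at 1.65 CPM (0.921 to 2.71) in the collagen-positive cells of D14 and 18.7 CPM at D21, and TBX18 at 0.110 CPM (1 UMI) and 6.95 CPM.

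TCF21, HGF and ASPN, picked after their values were seen, were also lower in value at D14. In comparison cells the D14 and D21 levels were 3.49 (2.37 to 4.95) and 73.0 CPM for TCF21, 0.562 (5 UMIs) and 122 CPM for HGF, and 0.225 (2 UMIs) and 57.6 CPM for ASPN. KRT19 went the other way, with 404 CPM on day 14 against 38.7 CPM on day 21, as did LRRN4, at 17.1 and 4.74 CPM. In the 34 cells of D14 that met the rule TCF21 had 5 UMIs, or 9.24 CPM (3.0 to 21.6), and KRT19 stood at 488 CPM. HGF had no UMI in these 34 cells, where 3 counts would be 5.55 CPM.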

How the data were processed

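Single-cell RNA was measured in 3 libraries of H7 organoids, 1 for each day. The authors deposited raw UMI counts for 32738 genes in 17327 barcodes, as 1 merged table. The submitters' processing notes name Cell Ranger, Seurat 3.2.1 and hg19, with the Cell Ranger version and its settings not given in the sources used here. The limits on detected genes and mitochondrial UMIs followed the study's methods and were applied here, since the deposited table is unfiltered for them. The day of a barcode was read from the end of its column name. No removal of free RNA or doublets is named in those sources and none was made here, and Scrublet (in scanpy 1.11.5) called 0 of the D21 cells and was not relied on to find doublets. The members and gene lists were chosen with earlier results of these data known.

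UMIs were summed over the cells of a group and divided by the group's total (CPM), with exact Poisson intervals for levels, exact binomial ones for log2 ratios and shares. Genes at 20 CPM or more in either group were compared and a 1.5-fold ratio was the limit, leaving out the 20 rule genes and mitochondrial genes. The genes named were those of 17 lists and the 15 ranked highest and 15 lowest by the log2 ratio after adding 5 CPM; a few of these genes are not reported here. Cells were thinned to 6000 UMIs with a fixed seed, leaving out 5 WT1/TBX18+ and 4 comparison cells that were shallower. Neighbours used 20 principal components of 2000 variable genes. Kept cells held 46767738 (D8), 50247286 (D14) and 30898727 (D21) UMIs. Python 3.11.15, numpy 2.4.6, scipy 1.17.1 and edgeR 4.0.16 (TMM scaling only) were used. Alternatives added after the data were seen were the values without top cells, 10 further thinning draws and the collagen limit in the neighbour search.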

Additional observations from a re-analysis of the deposited data

How the results depend on the processing

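The share of D21 cells that met the rule, 9.76%, was 17.7% with a mitochondrial limit of 5% and 5.39% with 20%, 2.83% with 2 or more UMIs of the pair, 4.66% after thinning, 7.19% for WT1 alone, 3.29% for TBX18 alone and 11.5% with no KDR limit. The counts of genes past the fold, 63 higher and 57 lower, were 102 and 131 with comparison collagen of 0.5%, 343 and 239 with 2 or more UMIs, 127 and 165 with cells chosen after thinning, 116 and 124 in cells of 10000 to 20000 UMIs, 168 and 181 on thinned counts, 125 and 119 with the hepatic level subtracted, 15 and 15 at 50 CPM, 2652 and 3974 with no filter, and 9 and 15 at a fold of 2. The lower count was 158 without limits on the comparison cells. The log2 ratio of TCF21, 0.52, was 0.22 with comparison collagen of 0.5%, 1.11 with 2 or more UMIs, -0.31 with cells chosen after thinning and 0.80 in the highest of 10 further draws. All values given here with cells chosen after thinning came from 1 draw. Of these gene ratios only that of TCF21 was drawn again, and its planned draw lay below the lowest further one, at 0.31. Its thinned share of 33.0% was 47.9% unthinned and 15.7% at 2 UMIs. Of 2100 single-gene log2 ratios under the alternatives, 184, for 75 genes, had the opposite sign to the reported value. Of these 184, 6 belonged to genes past the fold: SFRP5 (-0.033 with collagen asked of all cells, -0.018 at 10000 to 20000 UMIs), KRT19 (-0.39 with collagen), AQP3 (-0.098) and PENK (0.28) with cells chosen after thinning, and SPINK1 (0.26 at 10000 to 20000 UMIs). The cause was not tested for these. No paired analysis was possible because each day is 1 library. Most cells were chosen on 1 UMI, so the comparison cells may include some whose WT1 or TBX18 RNA was not captured.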

Other observations

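Cells above the mitochondrial limit held few WT1/TBX18+ cells. Among D21 barcodes with 10 to 20% mitochondrial UMIs and the same range of genes, 4 of 1656 met the rule, and 4 of their 17 collagen-positive cells (23.5%, 6.81 to 49.9) held WT1 or TBX18, beside 24.8% of 588 such cells under 5% and 22.0% of 118 at 5 to 10%.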
